A study of Mus musculus with 12 samples.

Results

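The cytosolic ribosomal protein genes were examined in RNA-Seq of mouse epiblast-like cells (EpiLCs), the cultured counterpart of the early post-implantation epiblast. Genes were taken by their symbols, as *Rpl* or *Rps* followed by a number and at most 1 letter a, x or l, together with *Rplp0*, *Rplp1*, *Rplp2* and *Rpsa*. This gave 81 of the 22911 genes in the deposited tables, 49 of the large and 32 of the small subunit. The 4 genotypes, for which the labels give the strain C57BL/6J and the study's methods a mixed background of the floxed *Kdm5c* mice, were each measured in 3 libraries (12 in all) from independent embryonic stem cell (ESC) lines. The groups were female controls (*Kdm5c* fl/fl), female mutants (*Kdm5c* Δ/Δ), male controls (*Kdm5c* fl Y) and male mutants (*Kdm5c* Δ Y). The labels give the genotypes as *Smcx* wild type and *Smcx* knockout, *Smcx* being an older name of *Kdm5c*, an X-linked gene for a histone H3K4 demethylase. Control cells carried the floxed allele, and mutant cells carried the allele left by Cre recombination, which lacks exons 11 and 12, the exons that encode the demethylase domain. All lines were grown for 4 passages in 2i medium with LIF and differentiated for 48 h with 10 ng/ml FGF2 and 20 ng/ml Activin A. The comparisons ask how loss of *Kdm5c* in each sex, and sex itself in controls, relate to the RNA of the ribosome's protein parts.

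A cytosolic ribosome holds a large subunit, which forms peptide bonds, and a small subunit, which reads the mRNA. Their proteins are made in matched amounts, are imported into the nucleus and are assembled on ribosomal RNA in the nucleolus, and surplus protein is degraded. Growing stem cells devote much of their transcription to these genes. Most ribosomal protein mRNAs begin with a C followed by a run of pyrimidines, the terminal oligopyrimidine (TOP) motif, through which mTOR signalling controls their translation.

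The start of the mRNA was available for 60 of the 81 genes, as RefSeq starts on GRCm38.p6. Windows of 30 bases, 10 before the annotated start and 20 from it, were searched on the gene's own strand for a C followed by at least 4 bases that are C or T. The annotated first base was such a C in 13 of 60 genes (21.7%), against 2.74% of the other genes of the tables and 3.01% of all 27025 genes with a RefSeq start. A run that began within 5 bases of the start was found in 28 (46.7%), against 21.6% of the other genes and 21.2% of all. The mitochondrial ribosomal protein genes had 0 of 68 at the first base and 17 within 5 bases (25.0%). Windows of 11 genes described below are shown, with the run in capitals where it begins within 5 bases of the start, to set genes that have the motif beside genes that lack it here. *Rps6*, *Rpl15*, *Rpl35*, *Rps21*, *Rpl28* and *Rps27* start on such a C. *Rps24* and *Rpl27a* have a run that begins within 5 bases of the start but does not have a C at the first base. *Rplp0*, *Rps12* and *Rpl10l* have no run that begins within 5 bases of the start, though their windows hold runs farther from it.
Rps6 (chr4:86857348-86857377, − strand): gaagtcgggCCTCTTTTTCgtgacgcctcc
Rpl15 (chr14:18270967-18270996, − strand): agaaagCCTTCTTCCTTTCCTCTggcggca
Rpl35 (chr2:39005112-39005141, − strand): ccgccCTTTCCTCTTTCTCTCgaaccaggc
Rps21 (chr2:180257369-180257398, + strand): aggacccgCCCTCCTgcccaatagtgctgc
Rpl28 (chr7:4792955-4792984, + strand): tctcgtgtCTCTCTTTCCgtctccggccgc
Rps27 (chr3:90213629-90213658, − strand): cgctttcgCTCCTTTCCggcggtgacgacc
Rps24 (chr14:24490668-24490697, + strand): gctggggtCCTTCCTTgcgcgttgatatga
Rpl27a (chr7:109519185-109519214, + strand): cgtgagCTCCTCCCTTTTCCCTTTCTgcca
Rplp0 (chr5:115559457-115559486, + strand): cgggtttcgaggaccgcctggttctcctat
Rps12 (chr10:23787190-23787219, − strand): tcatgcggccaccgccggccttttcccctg
Rpl10l (chr12:66284382-66284411, − strand): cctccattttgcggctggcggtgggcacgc
*Rps21* and *Rps24* each have a further RefSeq start without a run that begins within 5 bases of it. These matches describe the annotated letters only.

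Values are normalized counts, that is reads divided by the size factor of the library. The deposited tables give only group means, so the reads of each library were solved from these means, which was possible for all 81 genes in all 12 libraries. Within a genotype, the libraries are called A, B and C in the order of their size factors, largest first, and which ESC line each came from is not known. Between 6234044 and 12561033 reads were recovered per library. *Kdm5c* itself was lower in the female mutants, at 1406 to 1505 against 2315 to 2429 in the controls. In males it lay at 1897 to 1976 in mutants against 2110.1 to 2371 in controls, without overlap, but its adjusted p from limma was 0.268. Reads on exons outside the deletion count for *Kdm5c*, so this is a partial check. The study's methods describe an inspection of reads on the deleted exons, which gene-level values do not allow here. Within each genotype, the libraries differed by more than sampling noise, with a mean chi-square per gene of at least 2.18 where noise alone gives about 1. The male libraries did so most, since *Kdm5c* fl Y library B stood apart from A and C (18.6 and 19.2 against 2.90 between A and C) and *Kdm5c* Δ Y library A from B and C (33.5 and 30.9 against 3.09 between B and C). On 4929 genes chosen as hardly read in the libraries outside *Kdm5c* fl Y, *Kdm5c* fl Y libraries A and C had 8008 and 6166 reads and library B had 713. The libraries outside *Kdm5c* fl Y, low by that choice, had 317 to 602. Limma p-values set the difference between groups against the spread between these libraries. For the interaction and the comparison of controls, that spread is shared over all 12 libraries, although the male libraries differed more. An exact permutation test of 3 libraries against 3 cannot go below p = 0.10.

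Marker lists were summed per library to describe the cells. All 6 EpiLC markers had a group mean of at least 10 in every genotype, and they summed to 9206 to 9452 in female controls, 12782 to 13278 in female mutants, 10136 to 17317 in male controls and 7554 to 11199 in male mutants. The 7 naive ESC markers, also all detected, summed to 903 to 918, 2778 to 2924, 1387 to 2418 and 3808 to 6887 in the same order. The 8 endoderm markers summed to 250.5 to 318, 5229.6 to 5392, 2228 to 4116 and 587 to 4830.4, with *Ttr* under 1 in *Kdm5c* fl/fl. The 7 fibroblast markers summed to 2253 to 2302, 749 to 813, 560.5 to 824 and 4167 to 4663, with *Lum* under 1 in *Kdm5c* fl/fl and *Kdm5c* Δ Y. The 5 mesendoderm markers summed to 271 to 304, 237 to 252, 197 to 216 and 127 to 288, with *Mesp1* under 1 in every genotype. The sums of female mutants and controls did not overlap in any of the 5 lists, and those of males did not overlap in the naive and fibroblast lists. Single markers did not all follow their sum. In female mutants 4 of 5 mesendoderm markers had log2 changes above 0 while the sum was lower, with *T* going from a mean of 96.7 to 11.4, and 3 of 6 EpiLC markers lay below 0 while the sum was higher. In male mutants 3 of 7 fibroblast markers lay below 0. The part of such cells in the results that follow was not tested. In bulk RNA, fewer cells of a type and less RNA per cell cannot be told apart.

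Ribosomal protein genes were among the most abundant mRNAs in every genotype. The mean over the 4 groups was at least 1000 normalized counts for 74 of 81 genes, and the median gene, at 5055, exceeded 98.9% of the genes in the tables. Per kb of transcript, which allows levels of different genes to be compared, the median over 79 genes placed on mm9 was 7436. *Rps12*, a small subunit protein, was highest at 26456 normalized counts per kb, followed by *Rps16* at 20493, *Rpl13a* at 19983, *Rps2* at 19295 and the stalk base *Rplp0* at 16967. At the other end, *Rpl3l*, the paralog of *Rpl3* known from striated muscle, was at 3.82 per kb. Above it stood *Rps27* at 106, the testis-associated paralog *Rpl39l* at 129, *Rpl26* and *Rpl30* both at 159, *Rpl34* at 282 and the germline paralog *Rpl10l* at 282. *Rpl41* and *Rps4l* were not in the annotation used for lengths.

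**Figure D1:**
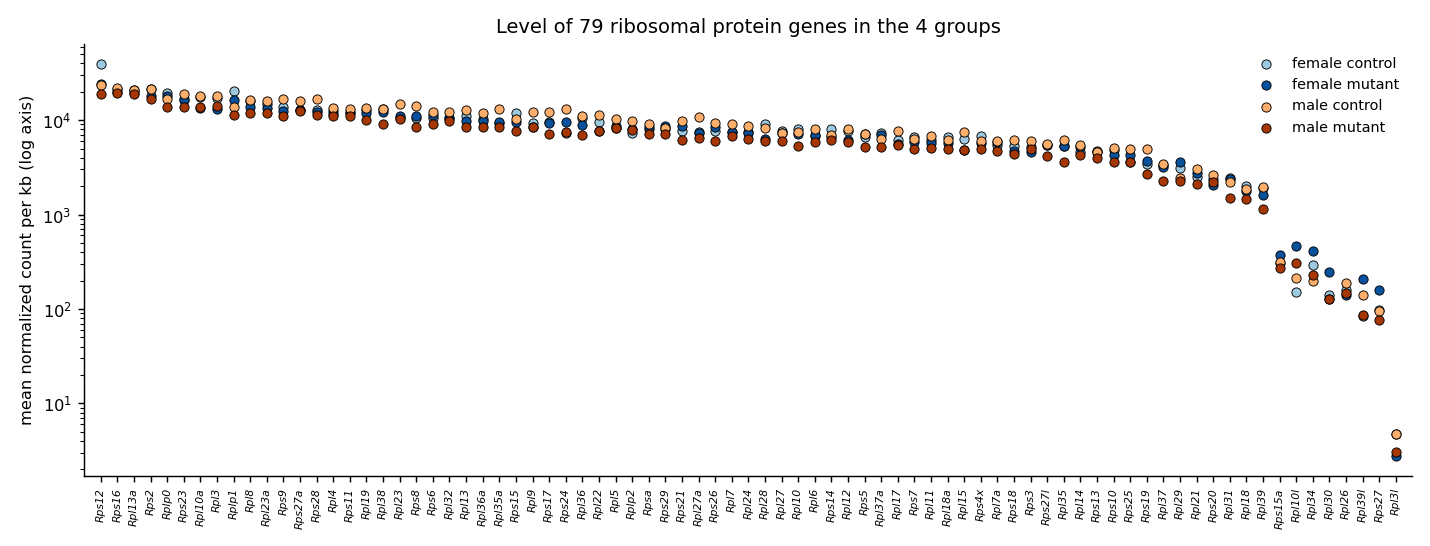
Mean normalized count per kb of transcript (log axis) of 79 ribosomal protein genes, ordered by their mean, with a point for each of the 4 groups. Levels run from 26456 per kb for *Rps12* to 3.82 for *Rpl3l*, and the male mutant is the lowest point for many genes.

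Only uniquely mapped reads were kept by the authors, and ribosomal protein genes have many processed pseudogenes. Of the 50-base windows of a transcript, the median gene had 42.2% without an exact copy elsewhere in mm9. This share was 0.338% for *Rps27*, 1.92% for *Rps12*, 8.84% for *Rpl3*, and all windows of *Rpl39l* and *Rpl3l* were free of copies. The median level was 10108 per kb for 13 genes with under 10% of windows free of copies and 5869 for 35 genes with at least 50%. Across the 79 genes, Spearman's rho of level per kb and this share was −0.34. Levels were thus higher, not lower, where fewer windows were free of copies, and how this relates to the unique mapping was not tested. The points share libraries and transcript models, so rho is descriptive. Levels of *Rps27*, *Rps12* and other genes that share reads with near-identical copies are therefore uncertain. The changes between genotypes were also set beside this share. In males the median log2 change was −0.43 for 13 genes with under 10% of windows free of copies, −0.44 for 31 genes with 10 to 50%, and −0.44 for 35 genes with at least 50%. In females the medians were −0.11, −0.10 and −0.01 in the same order, with 1, 3 and 8 genes called higher and 5, 8 and 10 called lower.

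In male EpiLCs, the summed RNA of the protein set was lower in the mutants, and 27 of its 81 genes were called lower. The 81 genes summed to 623896, 658937 and 625301 normalized counts in *Kdm5c* fl Y libraries A, B and C and to 524259.9, 471491 and 438672 in *Kdm5c* Δ Y libraries A, B and C. All mutant libraries lay below all controls, and mutant library A was the nearest to them. The means were 636045 ± 19838 and 478141 ± 43179.8 (SD, n = 3), so the mutant sum was 24.8% lower. As a share of the reads recovered in all libraries, the set fell from 6.97% ± 0.0215 to 5.30% ± 0.372 (SD, n = 3). Individually, 77 of 81 genes had a log2 change below 0, and the median was −0.44, against −0.17 over all 21970 genes tested and 0.02 over other genes with a mean of at least 1000. Over genes with a mean of at least 10, the all-gene median was 0.00. In 63 genes the mutant libraries lay wholly below the controls, and in 1, *Rpl34*, wholly above, where the background over all genes was 14.0% lower and 12.6% higher.

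By limma with Benjamini-Hochberg adjustment over all genes, 27 of the 81 genes were called lower in *Kdm5c* Δ Y EpiLCs, 54 did not pass, and 0 were called higher, against a background of 3.59% of genes called lower and 4.16% called higher. The called genes were 16 of 49 in the large and 11 of 32 in the small subunit. The count depended on which male libraries entered, while the median did not. Without *Kdm5c* fl Y library A or C, or without *Kdm5c* Δ Y library B or C, it was 0, 0, 1 and 0, at medians of −0.46, −0.44, −0.42 and −0.38. Without *Kdm5c* fl Y library B it was 27 lower and 2 higher (median −0.40), and without *Kdm5c* Δ Y library A it was 52 lower (median −0.48). Without both of the libraries that stood apart, 66 genes were called lower and 2 higher at a median of −0.44, with 43.1% of all genes then called. Those leave-out counts carry fewer libraries, and 0 of the 27 calls held in every one of the 6 fits. *Kdm5c* Δ Y library A, with the highest ribosomal protein sum of the mutants, also had fewer naive (3808 against 6716 and 6887) and endoderm counts (587 against 4635 and 4830.4) than libraries B and C, and more EpiLC counts (11199 against 7629 and 7554). *Kdm5c* fl Y library B, with the highest sum of the controls, had instead more naive (2418 against 1389.8 and 1387) and endoderm counts (4116 against 2312 and 2228) than A and C. Its EpiLC counts were also higher (17317 against 10136 and 10463). How these marker counts relate to the ribosomal protein sums was not tested.

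**Figure D2:**
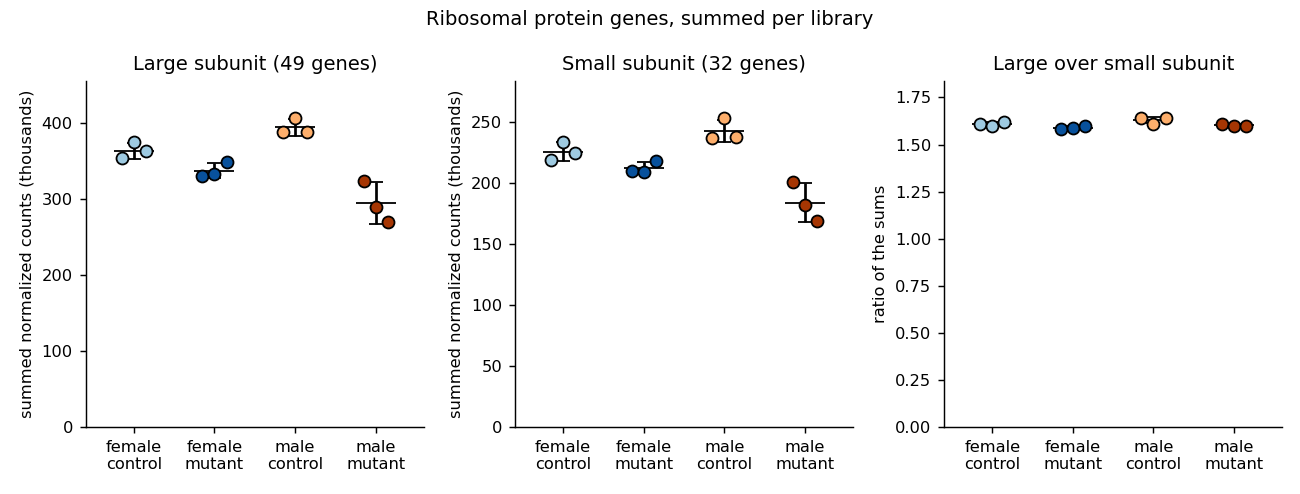
Summed normalized counts (axis in units of 1000) of the 49 large and 32 small subunit genes and the ratio of the sums, with a point per library, ordered A, B and C, and bars for the mean ± SD of 3 libraries. Male mutants lie below male controls in both subunits, female groups differ less, and the ratio stays between 1.58 and 1.64 in all 12 libraries.

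The male decreases were led by small subunit genes. *Rps19*, needed for maturation of the small subunit and the gene most often mutated in Diamond-Blackfan anaemia, had 3769.6, 3779 and 3866 normalized counts in *Kdm5c* fl Y libraries A, B and C and 2748, 1775 and 1756 in *Kdm5c* Δ Y libraries. Mutant library A was intermediate and the groups did not overlap. On mm9 the gene lies at chr7:25669390-25674825 (+ strand). Its log2 change was −0.89 (SE 0.17, adjusted p = 0.0150 from limma), and the adjusted p was 7.84e-05 to 0.0956 with a library left out. *Rps24*, another gene mutated in that anaemia, stood at 11226, 11463 and 11043 in controls and at 8433, 5352 and 5293 in mutants. Again the groups were apart and mutant library A lay between. The log2 change of *Rps24* was −0.86 (SE 0.18, adjusted p = 0.0224). Without a library, the adjusted p of *Rps24* reached 0.113.

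In the large subunit, *Rpl35*, which sits near the exit of the peptide tunnel, had 5979, 6139.9 and 5483 in *Kdm5c* fl Y and 4136, 3107 and 3035 in *Kdm5c* Δ Y libraries (log2 change −0.79, SE 0.14, adjusted p = 0.0121). *Rpl39*, a short protein that lines the same tunnel, had 1122, 1128 and 1377 against 896, 588 and 640.3 (−0.79, SE 0.17, adjusted p = 0.0242). Neither gene overlapped between the groups, and both were highest in library A among the mutants. *Rpl27a* fell by 0.75 on the log2 scale (SE 0.14, adjusted p = 0.0150) and *Rpl41*, the shortest ribosomal protein, which bridges the subunits, by 0.72 (SE 0.15, adjusted p = 0.0216). The calls of these 4 genes were each lost in 4 of the 6 leave-out fits, with adjusted p up to 0.0703, 0.135, 0.0868 and 0.106 for *Rpl35*, *Rpl39*, *Rpl27a* and *Rpl41*.

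Among proteins chosen for their known roles, most did not pass in males. The stalk recruits elongation factors to the ribosome: *Rplp0* had a log2 change of −0.28 (adjusted p = 0.246), *Rplp1* of −0.25 (0.201) and *Rplp2* of −0.32 (0.130), although the 3 mutant libraries of each lay below the controls. *Rpl5* and *Rpl11*, which form a particle with 5S RNA that can bind the p53 regulator Mdm2, had −0.33 (adjusted p = 0.142) and −0.45 (0.0784). *Rps6*, the target of S6 kinase, had −0.43 (0.0891), *Rpsa* −0.33 (0.128) and the ubiquitin fusion gene *Rps27a* −0.39 (0.171). *Rpl38*, whose loss in mice alters the axial skeleton, fell by 0.52 (SE 0.13, adjusted p = 0.0385), from 4636, 5156 and 4669 to 3874, 3247 and 3020.3, without overlap. Without a library its adjusted p was 0.00277 to 0.181. All p-values here are limma's, adjusted over all genes.

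**Figure D3:**
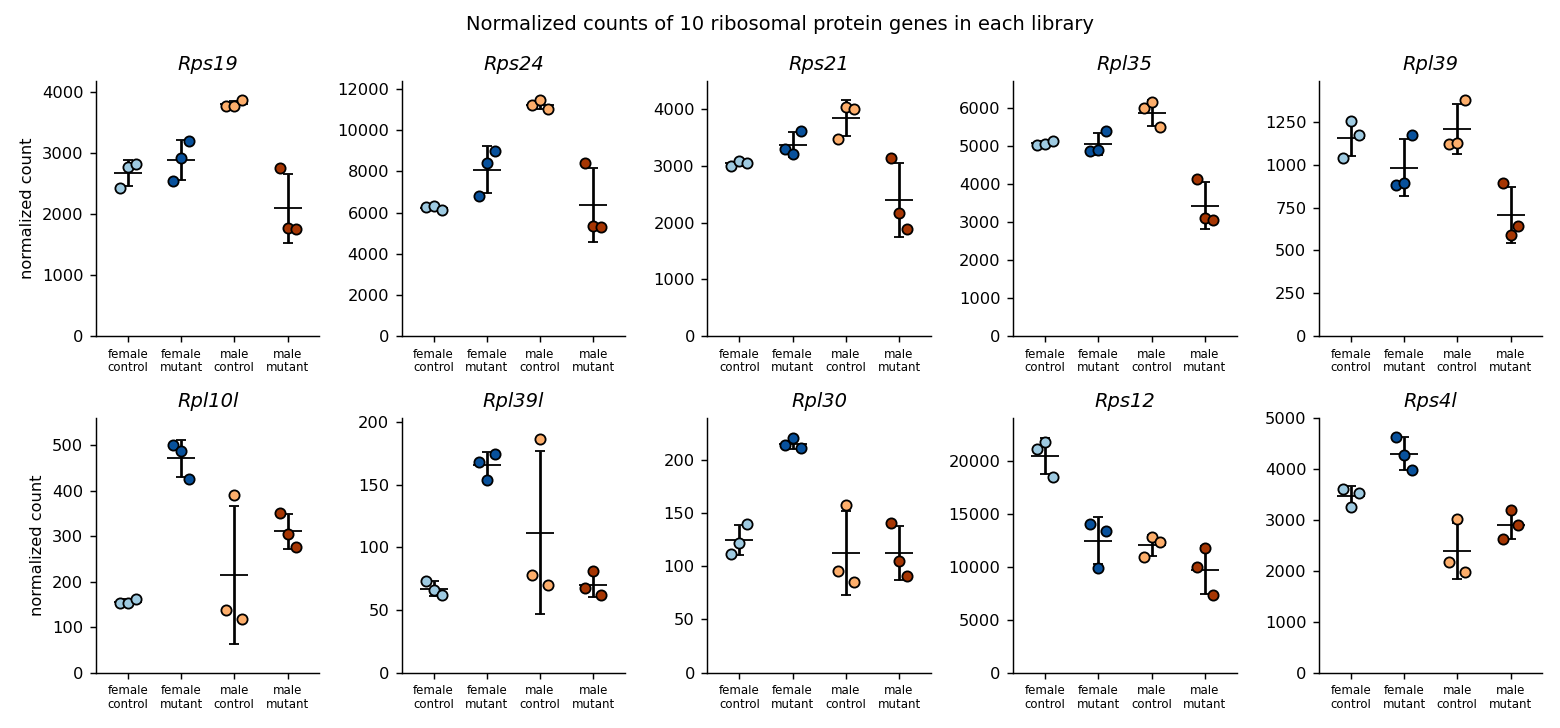
Normalized counts of 10 ribosomal protein genes, with a point per library, ordered A, B and C, and bars for the mean ± SD of 3 libraries. The upper 5 genes are lower in male mutants, with library A nearest to the controls, and the lower row shows genes that differed in female mutants.

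In female EpiLCs, the summed RNA of the set was somewhat lower in the mutants, and its genes moved in both directions. The sum was 572727, 607803 and 586273 in *Kdm5c* fl/fl libraries A, B and C and 539877, 542034 and 566290.1 in *Kdm5c* Δ/Δ libraries. The groups did not overlap, with mutant library C close to control library A. The means of 588934 ± 17689 and 549400.3 ± 14667 (SD, n = 3) put the mutant 6.71% lower, and the share of reads was 6.21% ± 0.159 and 5.54% ± 0.101. The median log2 change was −0.06, against 0.00 over all 19672 genes tested and 0.08 over other genes with a mean of at least 1000. Scaling by total reads placed the median at −0.12, with the all-gene median at −0.05. With that scaling, limma called 9 genes of the set higher and 32 lower, where 50.0% of all genes were called. With the solved size factors, limma called 13 genes higher and 23 lower and left 45 uncalled, against backgrounds of 25.5% higher and 24.7% lower. Among other genes with a mean of at least 1000, 42.5% were called higher and 27.2% lower. The share of 16.0% of the set called higher was thus below both backgrounds, and that of 28.4% called lower was near both. Libraries did not overlap for 19 genes lower and 15 higher in mutants, against 27.3% and 27.6% of all genes. Of the 36 calls, 23 held in every fit with a library left out. Between these groups, the endoderm marker sum went from 250.5 to 318 in controls to 5229.6 to 5392 in mutants, and its part in the result was not tested.

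The largest female increases were in genes of low level, led by paralogs known from the germline. *Rpl10l*, the autosomal copy that stands in for X-linked *Rpl10* in male meiosis, had 154, 152 and 162 normalized counts in *Kdm5c* fl/fl and 500.0, 488 and 425 in *Kdm5c* Δ/Δ libraries A, B and C. Each mutant library was well above each control, a fold of 3.00 (log2 change 1.59, SE 0.084, adjusted p = 4.35e-11 from limma). *Rpl39l*, the paralog of *Rpl39* known from spermatogenesis, had 73.4, 65.9 and 62.3 against 168, 154 and 175. The libraries did not overlap, and the fold was 2.45 (log2 change 1.29, SE 0.12, adjusted p = 1.02e-07). Both calls held with any library left out. In males, *Rpl10l* was 137, 389.8 and 118 in controls and 352, 305 and 276 in mutants, and *Rpl39l* was 77.8, 187 and 70.4 against 67.4, 81.1 and 62.1. Control library B was far above A and C for both genes, the groups overlapped, and the male log2 changes of 0.74 and −0.53 did not pass (adjusted p = 0.253 and 0.365). The parent genes went the other way in females, with *Rpl10* at −0.18 and *Rpl39* at −0.24. In female mutants *Rpl10l* had 461 normalized counts per kb against 7090.1 for *Rpl10*, and *Rpl39l* had 206 against 1606 for *Rpl39*. On mm9, *Rpl10l* lies at chr12:67384368-67385388 (− strand) and *Rpl39l* at chr16:10170319-10175004 (+ strand).

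Other paralogs moved less. *Rps4l*, a close relative of X-linked *Rps4x*, had 3608, 3244 and 3538 in *Kdm5c* fl/fl and 4629, 4279 and 3989.7 in *Kdm5c* Δ/Δ libraries, without overlap (log2 change 0.31, SE 0.062, adjusted p = 4.03e-04 from limma). In males its values of 2169, 3014 and 1973 overlapped with 2626, 3189 and 2901 in mutants (log2 change 0.30, adjusted p = 0.274). *Rps27l*, a paralog of *Rps27* induced by p53, was 2666 to 2745 and 2592 to 2779 in female controls and mutants (log2 change 0.00, adjusted p = 0.967). Its male log2 change was −0.43 (adjusted p = 0.0545). *Rpl3l* had under 11 normalized counts in every library and overlapped between all groups.

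Beyond the paralogs, *Rpl30*, *Rps27* and *Rpl34* rose in females from low levels. *Rpl30*, which also binds selenoprotein mRNAs, had 112, 122 and 140.1 in *Kdm5c* fl/fl and 214, 221 and 211 in *Kdm5c* Δ/Δ libraries (log2 change 0.79, SE 0.10, adjusted p = 4.93e-06 from limma). *Rps27* had 39.2, 34.0 and 27.8 against 55.6, 50.5 and 56.6 (0.68, SE 0.20, adjusted p = 0.00811), and *Rpl34* had 178, 195 and 172 against 262, 243 and 263 (0.49, SE 0.088, adjusted p = 1.43e-04). None of the 3 overlapped between the female groups, and each call held with any library left out. Of their windows, 55.4%, 0.338% and 55.3% are free of copies in the same order, so the values of *Rps27* above all are uncertain. The levels of the 3 genes, at 159, 106 and 282 per kb, lie far below the median of 7436. Whether these rows hold all reads of the genes was not tested, so their changes are uncertain too. In males the log2 changes were 0.02, −0.36 and 0.21, with adjusted p of 0.964, 0.543 and 0.442.

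The largest female decrease was in *Rps12*, with 21146, 21807 and 18526 in *Kdm5c* fl/fl and 14051, 9925 and 13425 in *Kdm5c* Δ/Δ libraries. The groups were well apart, and the log2 change was −0.73 (SE 0.10, adjusted p = 7.76e-06 from limma). As 1.92% of the windows of *Rps12* are free of copies, its values are uncertain. *Rpl28* fell from 5035, 5546 and 5699.8 to 4119, 3212 and 4176 (log2 change −0.51, SE 0.082, adjusted p = 4.53e-05). *Rpl10a*, the protein of the L1 stalk, fell from 14087, 15471 and 14598 to 11522, 10582 and 10974 (−0.42, SE 0.060, adjusted p = 1.23e-05). The 3 decreases were without overlap and called in each fit with a library left out. Among abundant genes, *Rpl3*, next to the peptidyl transferase centre, fell by 0.38 (SE 0.058, adjusted p = 2.36e-05) and *Rps2* by 0.24 (SE 0.060, adjusted p = 0.00240). In males the same 5 genes had log2 changes of −0.34, −0.45, −0.38, −0.36 and −0.34, with adjusted p from 0.0550 to 0.269.

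The stalk proteins moved apart in females. *Rplp1* had 10066, 10475 and 10002 in *Kdm5c* fl/fl and 8155, 7578 and 8541 in *Kdm5c* Δ/Δ libraries (log2 change −0.33, SE 0.058, adjusted p = 1.10e-04 from limma). *Rplp2*, its partner in the stalk dimer, had 7189, 6570.2 and 7122 against 7611, 8014 and 7719.6 (0.16, SE 0.056, adjusted p = 0.0225). Both were without overlap, but the call of *Rplp2* was lost in 3 of 6 leave-out fits (adjusted p up to 0.117). *Rplp0*, their base, was at −0.12 (adjusted p = 0.226). *Rpl5*, *Rpl11*, *Rps6*, *Rps19*, *Rpsa*, *Rps27a* and *Rpl38* did not pass in females, with log2 changes of −0.11 to 0.12.

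The calls in both sexes were set side by side. Lower in each were 7 genes, namely *Rpl10*, *Rpl13*, *Rpl15*, *Rpl22*, *Rpl36*, *Rpl39* and *Rps9*. They were 30.4% of those called lower in females and 25.9% of those called lower in males, where 33.3% of all 81 were called lower in males and 28.4% in females, so being called in a sex was not more frequent among the genes called in the other. A further 2, *Rps21* and *Rps24*, were called higher in female and lower in male mutants. Another 16 were lower in females alone, 18 lower in males alone, 11 higher in females alone and 27 called in neither. Chosen after its values were seen, *Rpl36* was among the former, with 4283, 4177 and 4176 against 3552, 3479 and 3597 in female and 4557, 4461 and 4342 against 2757, 3017 and 2674 in male libraries. It overlapped in neither sex and fell by 0.25 (adjusted p = 4.30e-04) in females and 0.66 (adjusted p = 0.00792) in males by limma. Without a male library its adjusted p in males was 0.00206 to 0.0577. *Rps21* was among the latter, with 2992, 3086 and 3052 against 3289, 3211 and 3618 in female and 3475, 4045 and 4007 against 3141, 2166 and 1887 in male libraries. Its log2 changes were 0.15 (adjusted p = 0.0373) and −0.71 (adjusted p = 0.0426), and the calls were each lost with some library left out (adjusted p up to 0.179 and 0.181). *Rps24*, the other such gene, rose in females from 6272, 6296 and 6130.1 to 6812, 8431 and 9014 (log2 change 0.37, adjusted p = 7.37e-04).

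**Figure D4:**
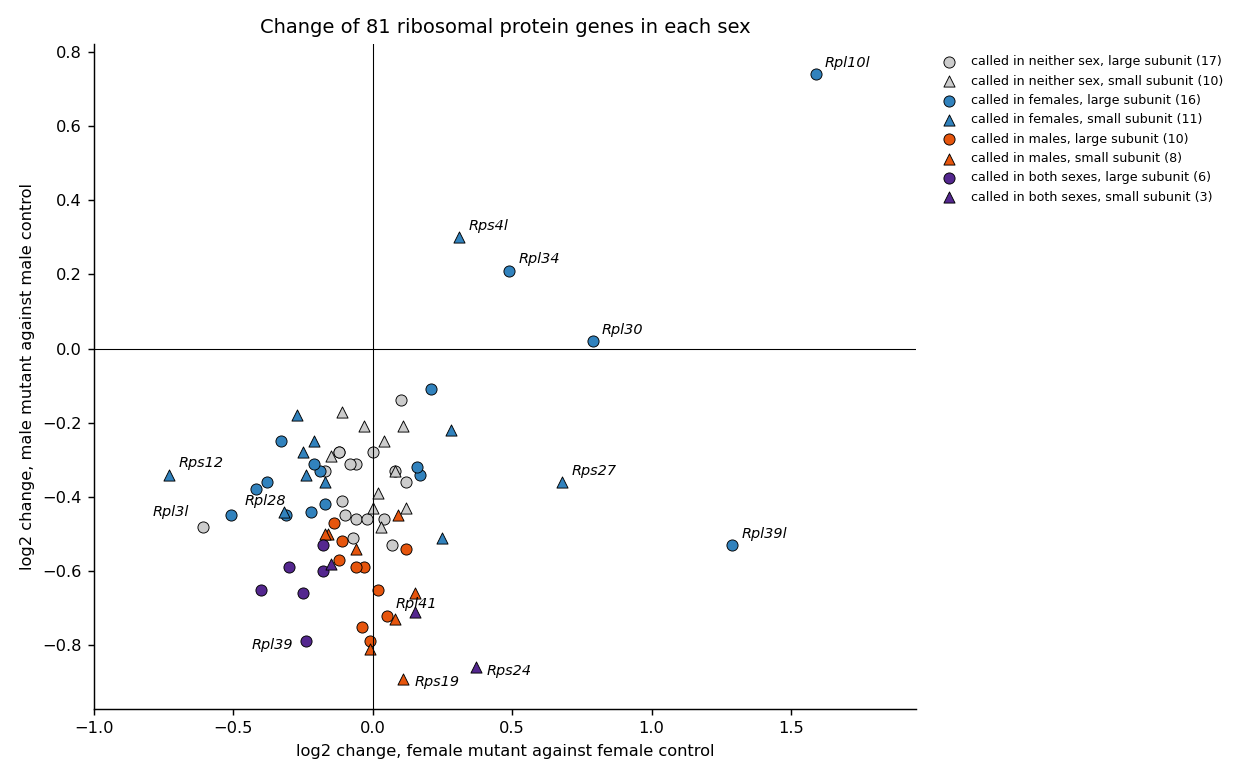
Log2 change of mutant against control in females (horizontal axis) and males (vertical axis) for the 81 ribosomal protein genes, by subunit and by the sex in which limma called them. In males 77 genes lie below 0, while in females the genes spread on both sides, with *Rpl10l* and *Rpl39l* farthest to the right.

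The difference between the sexes was tested directly with the interaction of sex and genotype. The male change was called lower than the female change for 28 of 81 genes and higher for 0, against a background of 10.8% lower and 10.6% higher. The median difference was −0.40, against −0.20 over all genes and −0.06 over other genes with a mean of at least 1000. Of these 28 calls, 19 held in every fit with a library left out. Without *Kdm5c* Δ Y library A, 49 genes were called. *Rps24* differed by −1.22 (SE 0.22, adjusted p = 0.00134 from limma), *Rps19* by −1.0 (SE 0.21, adjusted p = 0.00358) and *Rps21* by −0.86 (SE 0.20, adjusted p = 0.00827). *Rps26*, which lies where mRNA leaves the small subunit, differed by −0.81 (SE 0.17, adjusted p = 0.00480), since it was 3083, 3651 and 3513 against 3774, 3401 and 4218 in female and 4518, 4173 and 3787 against 3078, 2666 and 2218 in male libraries. The female groups overlapped and the male groups did not. *Rpl39l* differed by −1.82 (SE 0.40, adjusted p = 0.00523), and was called in all 12 leave-out fits (adjusted p up to 0.0163).

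The controls of both sexes were compared in the same fit. Relative to *Kdm5c* fl Y, *Kdm5c* fl/fl EpiLCs had 7.41% lower summed counts and a median log2 change of −0.09, against −0.17 over all genes and 0.11 over other genes with a mean of at least 1000. Limma called 5 of the 81 genes higher and 12 lower in female controls, against a background of 9.71% and 11.9%. *Rps24* was 0.85 lower on the log2 scale (SE 0.15, adjusted p = 0.00182) and *Rpl27a* 0.51 lower (SE 0.11, adjusted p = 0.00557), and *Rps12* was 0.77 higher (SE 0.17, adjusted p = 0.00545) and *Rplp1* 0.60 higher (SE 0.084, adjusted p = 2.92e-04). Female control values of *Rps24* were 6130.1 to 6296, below male control values of 11043 to 11463. The comparison of mutants with controls in each sex uses the same controls, so a low or high control enters both contrasts. Scaling by total reads gave 5 higher and 24 lower, and scaling by total reads outside these genes 5 higher and 28 lower. Of the 17 calls, 7 held in every leave-out fit. The count was 9, 11 and 10 without *Kdm5c* fl/fl library A or B or *Kdm5c* fl Y library A, and 29 without *Kdm5c* Δ Y library A.

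The balance of the subunits was then described. The large subunit sum divided by the small was 1.61 ± 0.00833 in female controls and 1.59 ± 0.0118 in female mutants, and 1.63 ± 0.0178 in male controls and 1.60 ± 0.00854 in male mutants (SD, n = 3). Single libraries ranged from 1.58 to 1.64. In male mutants the large subunit sum was 0.748 and the small subunit sum 0.758 of the control, and in female mutants 0.928 and 0.941. The median log2 changes were −0.45 and −0.41 in males and −0.08 and 0.01 in females for the large and small subunit. Their difference was −0.04 in males, within −0.05 to 0.04 with a library left out, and −0.09 in females, within −0.14 to −0.05.

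The 4 X-linked members were described separately because female ESCs carry a further X chromosome. *Rps4x* had 6325, 6856 and 6643 in *Kdm5c* fl/fl and 5320.2, 5582 and 5790.5 in *Kdm5c* Δ/Δ libraries, without overlap (log2 change −0.25, SE 0.056, adjusted p = 0.00113 from limma). *Rpl10*, which completes the large subunit, had 5939, 6842 and 6481 against 5323, 5333 and 6337, and the groups overlapped (−0.18, SE 0.071, adjusted p = 0.0392). *Rpl39* had 1041, 1254 and 1176 against 880.0, 893 and 1175, also with overlap (−0.24, SE 0.092, adjusted p = 0.0359). *Rpl10* and *Rpl39* were each called in 2 of 6 leave-out fits, with adjusted p up to 0.173 and 0.208, and *Rps4x* in all 6. *Rpl36a* had −0.07 (adjusted p = 0.492). In males, *Rpl10* had 5616, 6216 and 6244 against 4963, 3936 and 3718 and fell by 0.53 (adjusted p = 0.0457), and *Rps4x* and *Rpl36a* had −0.28 and −0.51 (adjusted p = 0.233 and 0.105). Between the controls of the sexes, the log2 differences of the 4 genes were 0.18 (*Rps4x*), 0.09 (*Rpl10*), −0.06 (*Rpl39*) and −0.23 (*Rpl36a*), none of which passed. Of their windows, 15.7%, 5.73%, 56.0% and 7.37% are free of copies in the same order, so the values of *Rps4x*, *Rpl10* and *Rpl36a* above all are uncertain.

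Genes were divided by the C-led run at their start. Of the 13 with a C at the first base, 7 were called lower in males (median −0.50), against 8 of 32 genes without a run within 5 bases (median −0.44). In females, 5 of the 13 were called higher and 2 lower (median 0.02), against 3 and 8 of the 32 (median −0.09). Over all genes, 25.5% were called higher and 24.7% lower in females, and 4.16% and 3.59% in males. The difference between these groups was not tested, and 0 of the 27 male calls among the 81 genes held in every leave-out fit. Other genes known for a TOP motif had 3 called higher and 3 lower of 19 in females (15.8% each, median −0.06), which is below the all-gene shares. In males they had 1 higher and 3 lower of 18 (median −0.23). *Pabpc1*, the poly(A)-binding protein, fell by 0.79 (SE 0.13, adjusted p = 0.00903 from limma), from 10510.3, 8664 and 11022 to 6144, 5799 and 5495. *Vim*, the intermediate filament gene, rose by 0.60 (SE 0.13, adjusted p = 0.0273).

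Genes that build ribosomes were described from lists of general knowledge. In females, where 25.5% of all genes and 41.5% of genes with a mean of at least 1000 were called higher, most of them rose: 17 of 21 genes for RNA polymerase I and ribosomal RNA transcription (median 0.45), 31 of 38 for small subunit assembly (0.40), 39 of 45 for large subunit assembly (0.48), 9 of 12 for snoRNP proteins (0.35) and 13 of 19 for chaperones and import of ribosomal proteins (0.30). Of the same lists, 1, 1, 2, 2 and 0 genes fell. *Ubtf*, the activator of ribosomal RNA genes, had 1867, 1979.6 and 1819.9 in *Kdm5c* fl/fl and 3169, 3290.4 and 3419 in *Kdm5c* Δ/Δ libraries (log2 change 0.80, SE 0.055, adjusted p = 1.25e-09 from limma). *Noc3l*, for export of large subunit precursors, rose by 1.17 (SE 0.057, adjusted p = 1.56e-11) and *Krr1*, for small subunit assembly, by 0.96 (SE 0.064, adjusted p = 9.55e-10). Among the ribosomal proteins themselves 13 of 81 were called higher, and the difference from the assembly lists was not tested.

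In males the assembly lists had few calls. On simulated data the fit found 27% of log2 changes of 0.6 in males, against 96% in females. The simulation gave every gene an equal spread and independent noise, whereas whole male libraries stood apart in the data. It therefore cannot tell how many changes the fit missed in these lists. For the 5 lists in the same order the medians were −0.04, −0.05, −0.09, −0.23 and 0.03, with 0 genes called higher and 0, 0, 1, 3 and 0 called lower. *Nle1*, for large subunit maturation, fell by 1.07 (SE 0.15, adjusted p = 0.00429 from limma), from 301, 345 and 282 to 157, 148 and 133, and fell in females by 0.65 (adjusted p = 8.24e-06). *Naf1* and *Nhp2*, which serve the H/ACA snoRNPs that guide pseudouridylation, fell by 0.89 (SE 0.16, adjusted p = 0.0121) and 0.71 (SE 0.14, adjusted p = 0.0156). In females both rose, by 0.31 (adjusted p = 1.36e-04) and 0.20 (adjusted p = 0.00353). *Mycn*, a driver of ribosome synthesis, rose in females from 378, 359 and 364 to 1375, 1304 and 1250.1 (log2 change 1.83, SE 0.061, adjusted p = 8.54e-14), and *Deptor*, an mTOR inhibitor, fell to 0.234 of the control (adjusted p = 1.42e-14). In the list of 29 mTOR and Myc regulators these belong to, 9 (31.0%) rose and 6 (20.7%) fell in females (median 0.08). These shares are near the 25.5% and 24.7% of all genes called higher and lower in females. In males 0 of the list rose and 1 fell (median 0.03), where 4.16% and 3.59% of all genes were called higher and lower.

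**Figure D5:**
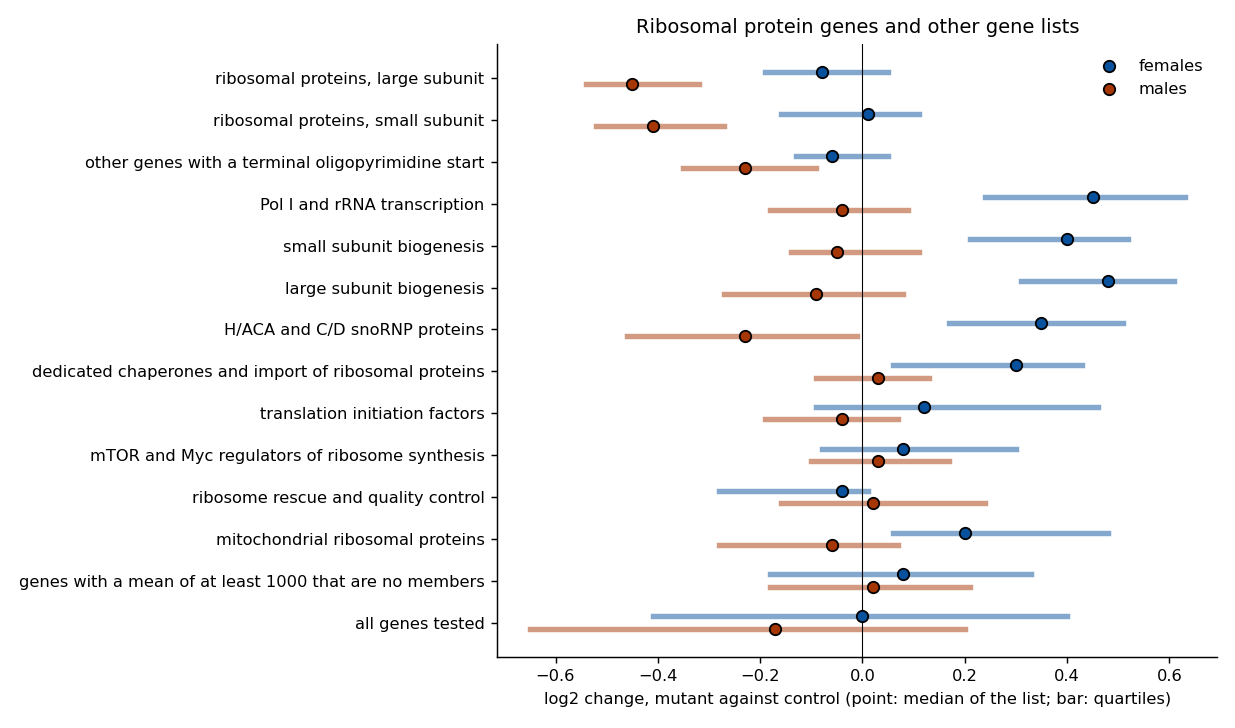
Median log2 change of mutant against control (point) with the quartiles (bar) for the ribosomal proteins of each subunit and other gene lists, in females and males. Ribosomal proteins have male medians of −0.45 and −0.41 against 0.02 for other genes with a mean of at least 1000, and the assembly lists have female medians of 0.30 to 0.48.

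Mitochondrial ribosomal proteins serve the separate ribosome of mitochondria. Of their 77 genes, 42 were called higher and 9 lower in females (median 0.20), and 2 higher and 6 lower in males (median −0.06). The background called higher and lower was 25.5% and 24.7% of all genes in females and 4.16% and 3.59% in males. Their summed counts were 1.19 of the control in female and 0.923 in male mutants, where those of the cytosolic set were 0.933 and 0.752. *Mrpl15* rose in females by 1.04 (SE 0.063, adjusted p = 2.36e-10 from limma) and *Mrpl23* fell to 0.497 of the control (adjusted p = 3.68e-06). Translation initiation factors rose in 17 (43.6%) and fell in 5 of 39 genes in females (median 0.12), near the 41.5% of abundant genes called higher, with 1 rising and 1 falling of 38 in males (median −0.04). Of 15 genes for ribosome rescue and quality control, 3 rose and 6 fell in females (median −0.04) and 0 were called in males (median 0.02). Whether these lists differ from the cytosolic ribosomal proteins was not tested.

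Related rows outside the naming rule behaved as follows. Of 7 tested paralogs and fusions, 1 was called higher and 1 lower in females (median −0.09), and 3 were called lower in males (median −0.47), among them *Rps3a1*, which had 13513, 13512 and 14357 against 10050.5, 8539 and 9157 (log2 change −0.58, SE 0.12, adjusted p = 0.0231 from limma). *Rpl36al* rose in females (0.33, SE 0.078, adjusted p = 0.00153). Of 5 tested pseudogene rows, 2 were called lower in each sex (median −0.10 in females and −0.66 in males). Over all genes, 25.5% were called higher and 24.7% lower in females, and 4.16% and 3.59% in males, and both lists are small. *Rps19-ps3* had 342, 334 and 388 in *Kdm5c* fl/fl and 61.9, 50.5 and 61.6 in *Kdm5c* Δ/Δ libraries (log2 change −2.59, SE 0.11, adjusted p = 3.86e-12), where *Rps19* itself had 0.11 (adjusted p = 0.264). Reads of such rows and of their parent genes can be exchanged where the sequences are near-identical.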

How the data were processed

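RNA was measured in 12 libraries of EpiLCs, 3 per group, prepared strand-specifically after depletion of ribosomal RNA and sequenced as 50 bp single-end reads. Per the labels and the study's methods, the authors aligned reads with TopHat2 2.1.0 and Bowtie2 2.2.6.0 to mm9, keeping uniquely mapped reads with at most 1 mismatch, and DESeq gave the values; Cuffdiff is listed too. The gene annotation is not given in the sources used here. Each of the 2 deposited tables, 1 per sex, holds a signal that the authors computed for each group, the mean of counts divided by size factors, for 22911 genes. Its columns of the authors' own comparisons (fold changes, p-values) and the overall mean were not used.

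As a group mean is a sum of 3 whole reads, each divided by a size factor, the reads of single libraries were solved with Python 3.11.15, numpy 2.4.6 and numba 0.67.0. This gave 22907 to 22910 of 22911 genes and 96.9 to 99.8% of the normalized reads of a group. The solved size factors were 0.988 to 1 times median-of-ratios factors over all 12 libraries.

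Log2(normalized count + 1) was tested with limma 3.58.1 (lmFit, eBayes with trend) in R 4.3.3, within each sex and, for the interaction and the comparison of controls, over all 12 libraries. Benjamini-Hochberg adjustment was over all genes with a read, and calls are at an adjusted p under 0.05. Fold changes are on the log2(value + 1) scale. The solving and the fit were tested on simulated data before use. Positions and lengths are from a gene annotation on mm9.

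Genes with values in each library were named by a rule: in each sex the 8 called members with the largest change and a mean of at least 10, up to 8 of the interaction, X-linked members, the paralogs *Rpl3l*, *Rpl10l*, *Rpl39l*, *Rps4l* and *Rps27l*, the 5 highest and 5 lowest levels, *Rplp0*, *Rplp1*, *Rplp2*, *Rpl5*, *Rpl11*, *Rps6*, *Rps27a*, *Rpsa*, *Rps19* and *Rpl38*, *Kdm5c*, and 2 called genes of each list and sex. Some genes that the rule names are not reported here. The members, lists and rule were chosen with earlier results of these data known. Alternatives were a pseudocount of 0.1, a minimum mean of 10, limma voom, scaling by total reads, upper quartile or median-of-ratios, and each library left out. Scaling by total reads outside the members, leaving out both male libraries that stood apart, and limiting genes to a mean of at least 100 outside *Kdm5c* fl Y were chosen after seeing the data.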

Additional observations from a re-analysis of the deposited data

Results flagged for a closer look

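The mutant change of 12 named ribosomal protein genes differed between the sexes by the interaction test of limma, adjusted over all genes. The values are male minus female log2 change. In the small subunit they were −1.22 for *Rps24* (adjusted p = 0.00134), −1.0 for *Rps19* (0.00358), −0.86 for *Rps21* (0.00827), −0.81 for *Rps26* (0.00480), −0.54 for *Rps6* (0.0151) and −0.43 for *Rps27l* (0.0192). In the large subunit they were −1.82 for *Rpl39l* (adjusted p = 0.00523), −0.78 for *Rpl35* (0.00267), −0.77 for *Rpl41* (0.0106), −0.71 for *Rpl27a* (0.00533), −0.48 for *Rplp2* (0.0102) and −0.41 for *Rpl5* (0.0332). All are negative. The calls of 10 of them held in each fit with a library left out, and those of *Rps27l* (10 of 12 fits) and *Rpl5* (3 of 12) did not.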

How the results depend on the processing

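No paired analysis was possible because the solved libraries cannot be matched to the replicate numbers of the labels. Counts of ribosomal protein genes called, with a library left out, ranged from 28 to 35 in females (36 with all), 0 to 52 in males (27), 19 to 49 for the interaction (28) and 9 to 29 between controls (17). The low male counts of 0, 0, 1 and 0 came without *Kdm5c* fl Y library A or C or *Kdm5c* Δ Y library B or C, and the high ones of 52, 49 and 29 without *Kdm5c* Δ Y library A. Leaving out both *Kdm5c* fl Y library B and *Kdm5c* Δ Y library A gave 68 male, 50 interaction and 34 control calls. Scaling by total reads, and by total reads outside these genes, gave 29 (24 lower) and 33 (28 lower) calls between controls and female medians of −0.12 and −0.13 in place of −0.06, with 9 higher and 32 lower, and 9 higher and 33 lower, in place of 13 and 23. The remaining settings left each of these 4 counts within 1.5 times, and the male median lay between −0.48 and −0.38 throughout. The large minus small subunit difference ranged from −0.14 to −0.05 in females and −0.05 to 0.04 in males with a library left out, and was 0.02 in males without both libraries. *Kdm5c* in males was −0.22 (adjusted p = 0.0222 from limma) without both libraries, against −0.20 (0.268), and −0.24 to −0.15 with a library left out. Of calls over all genes, 53.7% were higher in male mutants, against 41.0% without both libraries, 30.4% without *Kdm5c* fl Y library B and 64.2% without C. Between controls the share higher in females was 45.0%, against 58.7% when genes were limited to a mean of at least 100 outside *Kdm5c* fl Y. No called result changed direction. The cause of these shifts was not tested.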
